A study of Mus musculus with 6 samples.

Results

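The miR-17-92 and miR-106b-25 clusters are paralogous groups of microRNA (miRNA) genes, and 10 of their mature arms were followed here in brown and subcutaneous fat of mice. The 10 arms were taken by name from the 1251 arms of the deposited table. The members of miR-17-92 were miR-17-5p, miR-20a-5p, miR-19b-3p and miR-92a-3p. The members of miR-106b-25 were both arms of miR-106b, miR-93 and miR-25. There were 3 libraries of interscapular brown adipose tissue (BAT_EPA 3, 4 and 5; BF-EPA in the labels) and 3 of inguinal subcutaneous adipose tissue (SAT_EPA 1, 3 and 8; SUB-EPA in the labels), all from C57BL/6J mice. Feeding began at 5 to 6 weeks of age and lasted 11 weeks, on a high fat diet in which fat gave 45% of the energy, protein 20% and carbohydrate 35%. All groups used here were on the form of this diet with eicosapentaenoic acid (EPA, an omega-3 fatty acid; 6.75%, on a basis the labels do not give), and were fasted for 4 hours before sampling. The comparison is therefore between tissues under one diet; the groups without EPA were not analysed here. The sex of the mice and whether both tissues came from the same animals are not given, so p-values measure the spread between these libraries.

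Each miRNA hairpin yields 2 possible mature strands, named 5p and 3p, of which one usually accumulates as the guide and the other is mostly degraded. A guide finds its target messenger RNAs mainly through its seed, bases 2 to 8, so arms with one seed share most predicted targets. The miR-17-92 transcript is driven by MYC and E2F factors and promotes cell cycle entry and survival. It has been reported to accelerate the differentiation of cultured preadipocytes, whereas miR-106b and miR-93 have been reported to restrain brown adipocyte differentiation. The miR-106b-25 hairpins lie within Mcm7, which encodes a subunit of the replicative helicase.

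The mature sequences show which members can share targets. They are printed 5′ to 3′ from RefSeq (build GRCm38.p6; all 10 members were matched), with the seed in capitals. The first 4 share the miR-17 seed, which pairs with GCACUUU, the next 3 share the miR-92 seed, which pairs with GUGCAAU, and miR-19b-3p has a seed of its own among the members. MiR-92b-3p is not a member and is shown because it has the miR-92 seed.
miR-17-5p: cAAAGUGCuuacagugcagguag
miR-20a-5p: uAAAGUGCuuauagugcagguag
miR-106b-5p: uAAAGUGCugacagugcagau
miR-93-5p: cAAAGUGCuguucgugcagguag
miR-92a-3p: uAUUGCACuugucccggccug
miR-25-3p: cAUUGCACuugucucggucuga
miR-92b-3p: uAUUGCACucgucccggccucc
miR-19b-3p: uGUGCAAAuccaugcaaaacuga
Counted from the 5′ end without gaps, miR-17-5p differs from miR-20a-5p at 2 of 23 positions and from miR-93-5p at 4 of 23. MiR-92a-3p differs from miR-25-3p at 3 of 21 positions and from miR-92b-3p at 2 of 21. How reads that fit several of these sequences were assigned is not given in the sources used here, so the split between such close relatives is uncertain.

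The hairpins of miR-106b, miR-93 and miR-25 are shown because both of their arms are members, with each mature arm in capitals (5p first).
miR-106b: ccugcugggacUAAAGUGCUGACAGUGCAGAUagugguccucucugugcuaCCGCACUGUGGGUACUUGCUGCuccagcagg
miR-93: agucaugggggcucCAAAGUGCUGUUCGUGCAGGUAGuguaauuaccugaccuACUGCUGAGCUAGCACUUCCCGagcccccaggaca
miR-25: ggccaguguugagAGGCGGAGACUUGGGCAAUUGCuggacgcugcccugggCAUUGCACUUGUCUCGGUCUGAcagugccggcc
They lie on the minus strand of GRCm38 at chr5:138165737-138165818, chr5:138165523-138165610 and chr5:138165321-138165404. In GENCODE M21, 2 transcripts of Mcm7 span each of the 3 hairpins with an intron, and 1 other transcript has an exon over miR-93 and miR-25. The miR-17-92 hairpins lie on the plus strand within an exon of Mir17hg, from miR-17 at chr14:115043671-115043754 to miR-92a-1 at chr14:115044427-115044506. MiR-92a-3p and miR-19b-3p are also encoded on chromosome X, in the miR-106a-363 cluster, and their values hold both origins.

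Values are normalized log2 abundances as deposited, with a floor at 3.32 (10 on the linear scale). All 6 libraries have the maximum of 18.67, and 235 to 273 arms stood above the floor in each. Equal ranks held nearly equal values in all libraries, so every value is relative to the rest of its library. The read depth of each single library is unknown. Brown adipocyte miRNAs marked the tissues as labelled, with 4 of 4 listed higher in brown fat (miR-193b-3p, miR-365-3p, miR-378a-3p and miR-455-3p), and miR-196a-5p and miR-335-5p of white fat were at the floor in all 3 brown libraries. The muscle miRNA miR-133a-3p varied within both tissues, from 10.32 to 17.20 in brown and from 10.74 to 16.90 in subcutaneous fat, highest in BAT_EPA 4 and SAT_EPA 3, while miR-1a-3p of muscle was at the floor throughout. In the subcutaneous libraries abundance fell with the GC content of the mature sequence, by 0.085 to 0.11 log2 units per percentage point across arms above the floor, whereas in the brown libraries the slope was at most 0.0032 in size. Differences are therefore also given with each library's GC trend removed where that changes a call or moves a value by over 1.5 times. The removal shifts values at the floor as well, although these are not measured levels.

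The 10 members covered nearly the whole range of the table. MiR-92a-3p was the most abundant member in both tissues, ranking between 7 and 12 in the brown libraries and at 18 or 19 in the subcutaneous ones. It was followed in both tissues by miR-25-3p, miR-93-5p and miR-106b-3p, and the ranges of these neighbours did not overlap within either tissue. Below them the order was not resolved: in brown fat the ranges of miR-93-3p, miR-106b-5p, miR-25-5p and miR-17-5p overlapped from one to the next, as did those of miR-17-5p, miR-106b-5p, miR-93-3p and miR-19b-3p in subcutaneous fat. These levels are compared between arms of nearly equal length (21 to 23 bases).

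No member was at the floor in all 6 libraries, 5 of 10 were above it in all 6, and 5 were at it in at least 1. MiR-20a-5p was above the floor only in BAT_EPA 3 (5.77) and SAT_EPA 3 (4.53). MiR-19b-3p was above the floor in BAT_EPA 5 (4.63), SAT_EPA 1 (5.53) and SAT_EPA 8 (5.53), and at it in the other 3 libraries. Both arms fell below the minimum for testing (a mean of 24.05 linear units above the floor), and with no filter neither was called (limma adjusted p = 0.679 and 0.303). The other 3 arms with a library at the floor were miR-106b-5p, miR-93-3p and miR-25-5p, all of them at it in SAT_EPA 1, and miR-25-5p also in SAT_EPA 8. At the floor in brown fat were only miR-20a-5p and miR-19b-3p, in 2 libraries each.

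**Figure D1:**
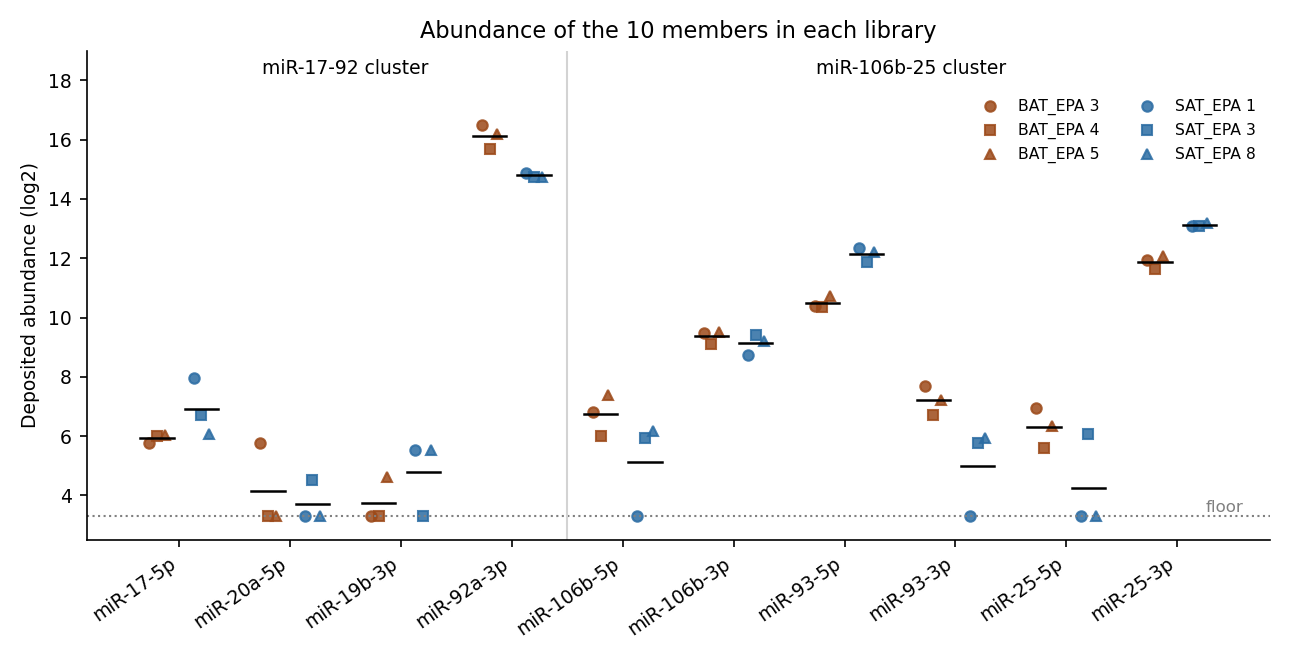
Abundance of each member (log2, as deposited; vertical axis) in the 3 brown (BAT_EPA) and 3 subcutaneous (SAT_EPA) libraries, with 1 point per library, a bar at the mean and the floor of 3.32 as a dotted line. MiR-92a-3p lies between 15.70 and 16.51 in brown fat and between 14.75 and 14.88 in subcutaneous fat, while miR-93-5p and miR-25-3p lie higher in all subcutaneous libraries.

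Of the 8 tested members, 2 were higher in brown fat (miR-92a-3p and miR-93-3p) and 2 lower (miR-93-5p and miR-25-3p) at an adjusted p of 0.05 (limma across 269 tested arms). Of all tested arms 33.5% were called higher and 35.7% lower, together 69.1%, so 4 called of 8 is no larger a share than that background. The values of the tissues did not overlap for 5 of the 8, against 74.0% of all tested arms: brown lay above in 2 of the 8 (33.8% of all tested arms) and below in 3 of the 8 (40.1%). The median difference (brown minus subcutaneous, log2) was 0.79 over the 8 members and -0.45 over all tested arms. The members' median, taken over arms that differ in both directions, was 0.09 with the GC trend removed (-0.27 over all tested arms), 0.37 without SAT_EPA 1 (-0.40) and 1.21 after median-of-ratios scaling (-0.09). It was -0.49 over the 4 members that pass a stricter filter and 0.33 over all 10 with no filter. The calls were split within the miR-106b-25 cluster (1 higher, 2 lower, 3 without a call of 6 tested), and of the 2 tested members of miR-17-92 1 was higher and 1 had no call. In these bulk samples fewer cells of a type and less RNA per cell cannot be told apart.

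MiR-92a-3p, the last hairpin product of miR-17-92 and a miRNA known for restraining vessel growth, was the abundant member that was higher in brown fat. It stood at 16.51, 15.70 and 16.18 in BAT_EPA 3, 4 and 5 and at 14.88, 14.75 and 14.75 in SAT_EPA 1, 3 and 8. All 3 brown libraries lay above all 3 subcutaneous ones, and the smallest gap between the tissues was about as wide as the range within brown fat. The means were 16.13 ± 0.41 and 14.79 ± 0.08 (SD, n = 3 each), a 2.52-fold difference (log2 1.34 ± 0.21 SE, limma adjusted p = 0.00184). With the GC trend removed the difference was 0.78 ± 0.23 SE (limma adjusted p = 0.0232). Since SAT_EPA 3 and 8 hold a single value here, as equal ranks do in this table, the subcutaneous spread can be too small.

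The other strand of the miR-92a-1 hairpin was scarce and was not called. MiR-92a-1-5p stood at 5.49, 6.45 and 6.68 in the brown and at 7.12, 6.91 and 6.87 in the subcutaneous libraries, with all brown values the lower ones. Its difference of -0.76 ± 0.40 SE did not pass the test (limma adjusted p = 0.129). It was -0.38 with the GC trend removed (0.459), -0.39 after median-of-ratios scaling (0.407), -0.40 without BAT_EPA 3 and -0.43 without both libraries numbered 3. In brown fat miR-92a-3p exceeded miR-92a-1-5p by 9.92 ± 0.96 log2 units (SD, n = 3), and in subcutaneous fat by 7.82 ± 0.06. MiR-92a-2-5p, the partner strand from chromosome X, was listed at the floor in all 6 libraries.

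MiR-25-3p, which has the seed of miR-92a-3p, was lower in brown fat. It stood at 11.94, 11.65 and 12.07 in BAT_EPA 3, 4 and 5 and at 13.09, 13.09 and 13.18 in SAT_EPA 1, 3 and 8. The subcutaneous values lay above the brown ones without overlap and close together, 2 of them being a single value. The difference was -1.23 ± 0.15 SE, a 2.35-fold excess in subcutaneous fat (limma adjusted p = 0.000692). It was -0.81 after median-of-ratios scaling (limma adjusted p = 0.00589).

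Members with the miR-92 seed thus differed between the tissues in opposite directions. Within each library miR-92a-3p exceeded miR-25-3p by 4.57, 4.04 and 4.11 log2 units in BAT_EPA 3, 4 and 5, and by 1.80, 1.66 and 1.57 in SAT_EPA 1, 3 and 8. The gap was wider in every brown library than in any subcutaneous one, with means of 4.24 ± 0.29 and 1.67 ± 0.12 (SD, n = 3 each). An exact two-sided permutation test gave p = 0.1, the smallest that 3 against 3 libraries allow (adjusted p = 0.35 over 7 pairs of members with a common seed). MiR-92b-3p, from a gene of its own on chromosome 3, was higher in brown fat, as was miR-92a-3p: its mean was 9.36 ± 0.24 in the brown and 7.42 ± 0.26 in the subcutaneous libraries (SD, n = 3 each), a 3.84-fold difference (log2 1.94 ± 0.25 SE, limma adjusted p = 0.000807), and 0.72 with the GC trend removed (limma adjusted p = 0.0218). Summed above the floor on the linear scale, the 6 arms of the table with this seed came to 77876 ± 20409 linear units in brown and 37413 ± 1429 in subcutaneous fat (SD, n = 3 each). MiR-92a-3p made up 93.1% to 95.3% of that sum in the brown libraries and 74.4% to 77.4% in the subcutaneous ones, while miR-25-3p made up 4.0% to 5.6% and 22.2% to 25.1%.

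Among the arms with the miR-17 seed, miR-93-5p was the abundant one in every library and was lower in brown fat. It stood at 10.38, 10.36 and 10.74 in BAT_EPA 3, 4 and 5 and at 12.34, 11.88 and 12.20 in SAT_EPA 1, 3 and 8. The lowest subcutaneous library was more than 1 log2 unit above the highest brown one. The difference was -1.64 ± 0.20 SE, a 3.13-fold excess in subcutaneous fat (limma adjusted p = 0.000527).

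MiR-17-5p, which gives the seed family its name and targets cell cycle inhibitors, was low in both tissues. It stood at 5.77, 6.01 and 6.04 in the brown and at 7.96, 6.71 and 6.06 in the subcutaneous libraries. The tissues did not overlap, but SAT_EPA 8 lay only just above the brown libraries and SAT_EPA 1 far above the rest. The difference of -0.97 did not pass the test (95% interval -2.25 to 0.31, limma adjusted p = 0.139), and without SAT_EPA 1 it was -0.45. It was -0.59 with the GC trend removed and -0.60 after median-of-ratios scaling, again with no call (limma adjusted p = 0.361 and 0.338).

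MiR-106b-5p showed the reverse order, with overlap. It stood at 6.80, 6.01 and 7.40 in the brown and at 3.32, 5.94 and 6.16 in the subcutaneous libraries, where SAT_EPA 1 was at the floor and SAT_EPA 8 above BAT_EPA 4. The difference of 1.59 was not called (95% interval -0.47 to 3.65, limma adjusted p = 0.136), and without SAT_EPA 1 it was 0.68. With the GC trend removed, which also shifted the floor value of SAT_EPA 1, it was 2.47 and called (limma adjusted p = 0.0456). It was 0.85 with 40 linear units added before the logarithm and 2.70 with the floor subtracted and 1 added, with no call. SAT_EPA 1 was thus the highest library for miR-17-5p and the lowest for miR-106b-5p.

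Of the 6 pairs of members with the miR-17 seed, the gap between the 2 members overlapped between the tissues in 5. Gaps that involve miR-20a-5p rest largely on the floor, where that arm stood in 2 brown and 2 subcutaneous libraries. The pair without overlap was miR-106b-5p against miR-93-5p. The log2 value of miR-106b-5p minus that of miR-93-5p was -3.58, -4.36 and -3.34 in BAT_EPA 3, 4 and 5. It was -9.02, -5.93 and -6.03 in SAT_EPA 1, 3 and 8, where the value of SAT_EPA 1 is set by miR-106b-5p at the floor. The exact two-sided permutation p was again 0.1 (adjusted p = 0.35 over 7 pairs). MiR-106b-5p and miR-93-5p come from the same stretch of Mcm7. The 7 arms of the table with the miR-17 seed summed to 1614 ± 262 linear units above the floor in brown and 4710 ± 751 in subcutaneous fat (SD, n = 3 each). MiR-93-5p made up 87.4% to 92.3% of that sum in the brown and 95.6% to 97.5% in the subcutaneous libraries, so the sum largely restates miR-93-5p. The sum with the miR-17 seed was thus larger in subcutaneous fat, and that with the miR-92 seed larger in brown fat.

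**Figure D2:**
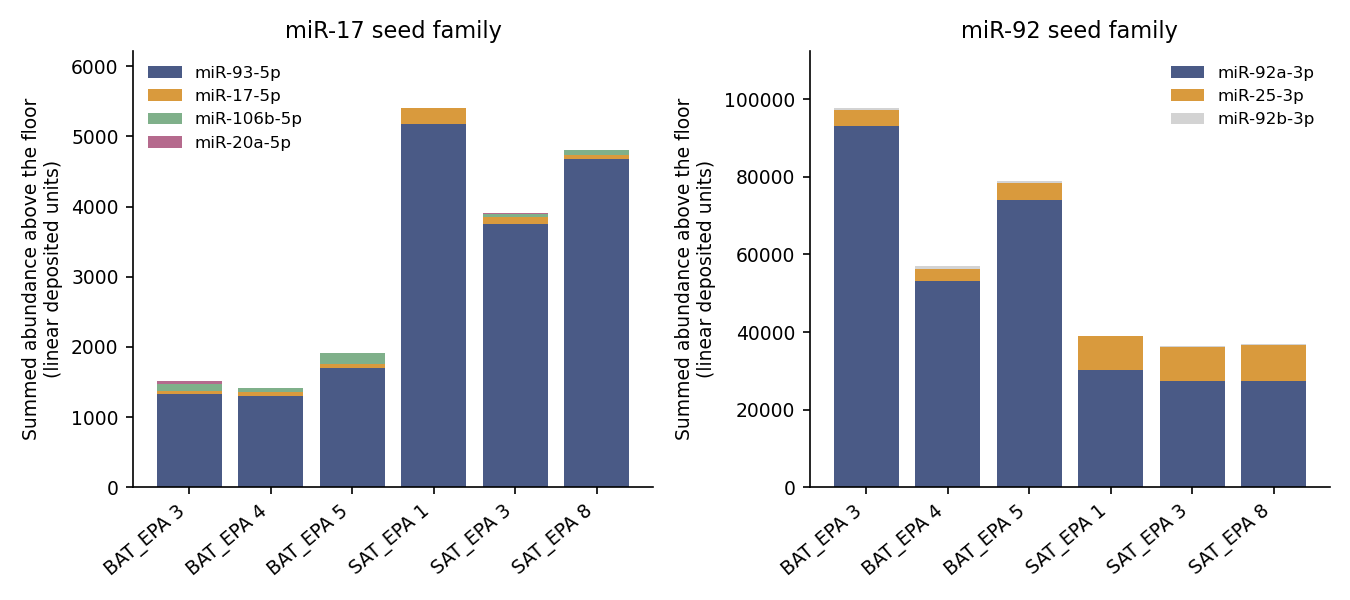
Abundance above the floor (linear deposited units, from 0) summed over the arms of each seed in each library, with the parts of the bars showing the arms. The miR-17 seed (left) sums to 1415 to 1911 in the brown and 3916 to 5410 in the subcutaneous libraries, nearly all of it miR-93-5p; the miR-92 seed (right) sums to 56989 to 97770 and 36333 to 39034, with miR-25-3p a larger part in subcutaneous fat.

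The minor strands of miR-93 and miR-25 had higher means in brown fat, unlike their abundant partners, with a call for miR-93-3p. MiR-93-3p stood at 7.70, 6.71 and 7.22 in BAT_EPA 3, 4 and 5 and at 3.32, 5.76 and 5.94 in SAT_EPA 1, 3 and 8. All brown libraries lay above the subcutaneous ones, of which SAT_EPA 1 was at the floor. The difference of 2.20 ± 0.77 SE was called narrowly (limma adjusted p = 0.0403). The call was lost without BAT_EPA 3 (1.96, 0.134), BAT_EPA 4 (2.45, 0.0733), BAT_EPA 5 (2.20, 0.11) or SAT_EPA 3 (2.58, 0.0506), without both libraries numbered 3 (2.33, 0.147), without BAT_EPA 4 and SAT_EPA 3 together, which hold the most miR-133a-3p (2.83, 0.0963), with the floor subtracted and 1 added (3.38, 0.112) and with the GC trend removed (1.45, 0.119); the second value in each is limma's adjusted p. Without SAT_EPA 1 it was 1.36 and with 40 linear units added 1.28, both called (0.0323 and 0.0169).

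MiR-25-5p stood at 6.96, 5.60 and 6.35 in the brown libraries and at 3.32, 6.08 and 3.32 in the subcutaneous ones. SAT_EPA 3 lay within the brown range and the other 2 subcutaneous libraries were at the floor. The difference of 2.06 was not called (95% interval -0.05 to 4.18, limma adjusted p = 0.0741). It passed without SAT_EPA 3 (2.98, limma adjusted p = 0.00616), without both libraries numbered 3 (2.65, 0.0157), without BAT_EPA 4 and SAT_EPA 3 together (3.33, 0.00426) and after median-of-ratios scaling (2.31, 0.0464). It was not called with the GC trend removed (1.31, limma adjusted p = 0.195), with 40 linear units added (0.91, 0.086) or with the floor subtracted and 1 added (4.15, 0.0817).

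MiR-106b-3p, the more abundant strand of its hairpin here, was not called. It stood at 9.49, 9.12 and 9.52 in the brown and at 8.75, 9.42 and 9.21 in the subcutaneous libraries, with overlap. The difference was 0.25 with a 95% interval of -0.35 to 0.86 (limma adjusted p = 0.393), 0.07 without SAT_EPA 1 and 0.67 after median-of-ratios scaling. With the GC trend removed the direction turned, to -0.96 ± 0.20 SE (limma adjusted p = 0.00577); at 63.6% its GC content is the highest of the members.

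**Figure D3:**
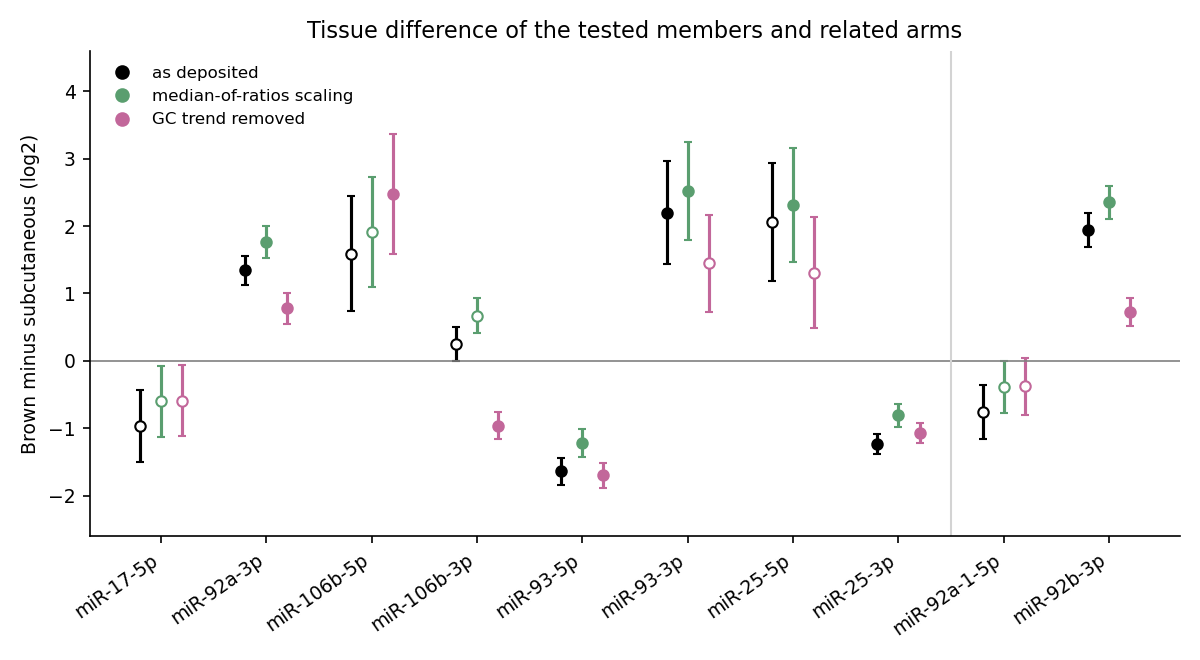
Difference between the tissues (brown minus subcutaneous, log2; points, with the SE of the fit as bars) for the 8 tested members and, right of the line, 2 related arms, as deposited and under 2 alternatives. Filled points have a limma adjusted p under 0.05: miR-93-5p and miR-25-3p stay below 0 and miR-92a-3p and miR-92b-3p above it in all 3, while miR-106b-3p goes from 0.25 to -0.96 with the GC trend removed.

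The balance of the strands was tested in its own fit, on the log2 difference 5p minus 3p within each library. Of 54 hairpins with both arms tested, 28 (51.9%) differed between the tissues, and 2 of the 3 member hairpins were among them. For miR-93 the 5p arm exceeded the 3p arm by 2.68, 3.65 and 3.52 log2 units in BAT_EPA 3, 4 and 5 and by 9.02, 6.12 and 6.25 in SAT_EPA 1, 3 and 8. The excess was larger in every subcutaneous library, though the value of SAT_EPA 1 is set by the floor. The tissue difference was -3.85 ± 0.79 SE (limma adjusted p = 0.00491), the sixth largest in size of the 54. It was -2.90 without SAT_EPA 1. The call was lost with the floor subtracted and 1 added (-5.03, limma adjusted p = 0.0526).

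For miR-25 the 3p arm is the abundant one, and 5p minus 3p was -4.98, -6.05 and -5.72 in the brown and -9.76, -7.01 and -9.86 in the subcutaneous libraries. The strands were again closer in every brown library. The difference was 3.29 ± 0.79 SE (limma adjusted p = 0.00927), and 2.85 without SAT_EPA 1, where the call was lost (0.0519). In SAT_EPA 1 and 8 the 5p arm is at the floor. Since that arm reached the minimum for testing only through brown fat, where it is higher, the call is no independent support for a tissue difference. The difference was 2.13 with 40 linear units added and 5.39 with the floor subtracted and 1 added, both called (limma adjusted p = 0.00104 and 0.0448).

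For miR-106b, 5p minus 3p was -2.69, -3.12 and -2.12 in the brown and -5.43, -3.47 and -3.04 in the subcutaneous libraries, which overlapped. The difference of 1.34 ± 0.69 SE was not called (limma adjusted p = 0.146). It was 0.61 without SAT_EPA 1, 0.61 with 40 linear units added and 2.44 with the floor subtracted and 1 added, with no call. With the GC trend removed, which also shifted the floor value of the 5p arm in SAT_EPA 1, it was 3.44 and called (0.00658). In each of the 3 hairpins the minor strand was thus on average nearer to the major one in brown fat. There was a call in 2 of them, of which miR-25 entered the test only through brown fat. Nearer strands in brown fat were not particular to the members. Outside the clusters let-7e had them too, with a mean 5p minus 3p of 3.53 in brown and 7.05 in subcutaneous fat. MiR-99b went the other way (11.08 and 7.77). The share of all 54 hairpins with nearer strands in brown fat was not counted, so these 2 examples do not show how common either direction was.

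**Figure D4:**
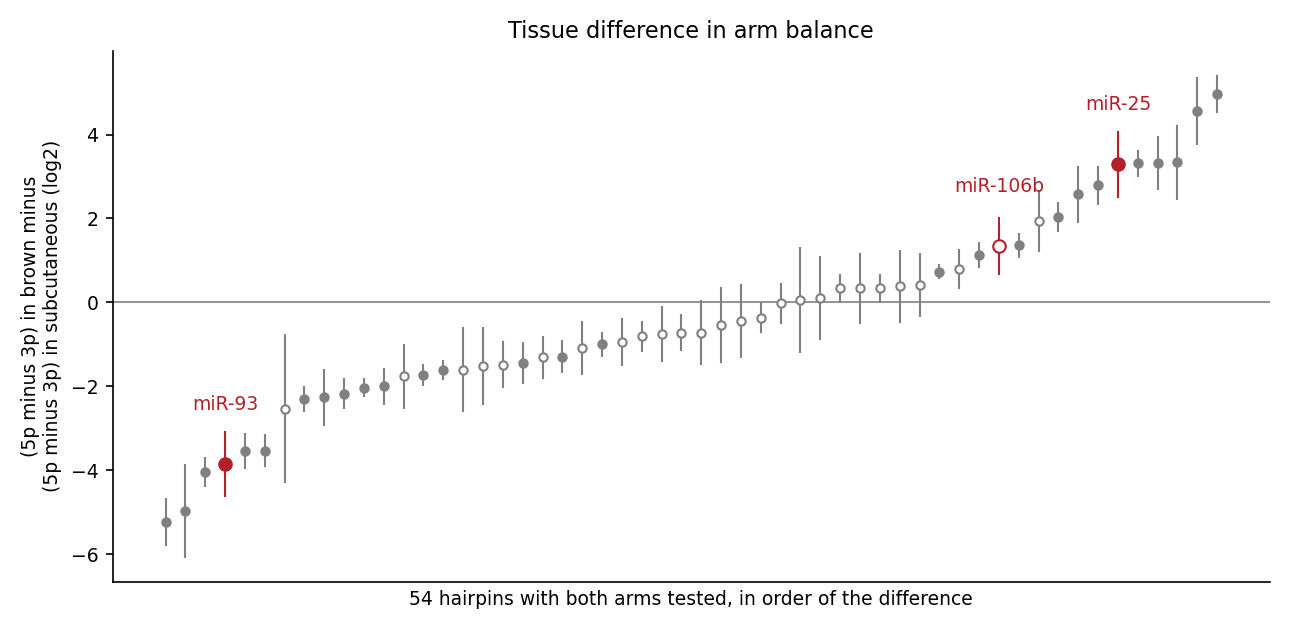
Tissue difference in the log2 ratio of the 5p to the 3p arm (points, with the SE of the fit) for the 54 hairpins with both arms tested, in order of the difference; filled points have a limma adjusted p under 0.05 and the member hairpins are in red. MiR-93 (-3.85) and miR-25 (3.29) lie toward opposite ends and miR-106b (1.34) between them, uncalled.

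Of 23 related arms from these clusters, the X-linked miR-106a-363 cluster and other genes with a member's seed, 19 were listed at the floor in all 6 libraries. Among these were all 10 arms of miR-106a-363 and both arms of miR-19a. MiR-17-3p was above the floor in all 3 brown libraries (5.49, 5.60 and 4.91) and at it in all 3 subcutaneous ones, below the minimum for testing. With no filter the difference was log2 2.01 ± 0.45 SE, but miR-17-3p entered that fit only through brown fat, against subcutaneous values all at the floor. No call is therefore read from it. Its sign was opposite to that of the uncalled difference of miR-17-5p, its partner strand. MiR-18a-3p stood at 6.23 in BAT_EPA 3 and 4.91 in BAT_EPA 5 and was at the floor in the other 4 libraries, as was miR-18a-5p in all 6. Of the 2 related arms that were tested, 1 was higher (miR-92b-3p) and 1 was not called (miR-92a-1-5p).

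Arms outside the clusters whose log2 values were most like those of a member over the 6 libraries were miR-223-3p for miR-93-5p (Pearson's r = 0.998), miR-322-5p for miR-25-3p (0.997), miR-378b for miR-92a-3p (0.996) and miR-21a-3p for miR-17-5p (0.992). Each of the 3 subcutaneous libraries had miR-378b at the floor, 4 of the 6 libraries had miR-21a-3p there and 2 of the brown ones miR-223-3p, so those values of r rest on few values above the floor. Each named arm was the closest of 261 tested arms, and all points share the 6 libraries, their tissue split and their normalization. For the other tested members the closest arms were miR-6243 for miR-93-3p (0.979), miR-485-5p for miR-25-5p (0.962), let-7e-3p for miR-106b-5p (0.922) and miR-140-3p for miR-106b-3p (0.905). Among these, miR-6243 was at the floor in SAT_EPA 1 and miR-485-5p in SAT_EPA 1 and 8.

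Markers of other cell types also differed between the tissues. Blood cells carry miR-92a-3p and miR-25-3p, and of 3 erythroid arms 2 were above the floor: miR-486-5p was 17.68 in all brown libraries and 14.15 to 15.09 in subcutaneous fat, miR-451a was 8.19 to 9.18 and 9.80 to 10.43, and miR-144-3p was at the floor throughout. The sum of the erythroid arms (log2) was 17.68 in each brown library and 14.25 to 15.15 in subcutaneous fat. That sum largely restates miR-486-5p, whereas miR-451a was lower in brown fat (log2 -1.49, limma adjusted p = 0.00662), so the 2 arms found differed in direction. The 2 endothelial arms found summed to 11.66 to 11.90 in brown and 13.27 to 13.62 in subcutaneous fat, and the 4 stromal arms to 14.64 to 14.91 and 16.45 to 16.78. Of 4 listed leukocyte names 2 matched the table, with sums of 15.02 to 15.47 and 13.76 to 14.27. These sums largely restate miR-150-5p, with means of 15.26 in brown and 13.99 in subcutaneous fat. MiR-223-3p went the other way, at the floor in 2 brown libraries and at 8.79 to 9.85 in subcutaneous fat. MiR-142-5p, listed as miR-142a-5p and so not matched, was also lower in brown fat (log2 -2.08, limma adjusted p = 0.00408). The part of these cells in the members' differences was not tested.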

How the data were processed

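Small RNA libraries were made from total RNA of frozen tissue with an Illumina protocol, per the labels' protocols. Reads were mapped to mouse build mm10 (about 13.8 M per sample), scaled to total usable reads and given 40 added counts, per the series' design text; no source used here names the aligner or the miRNA annotation. The deposited values are log2 abundances made by the authors. They do not show the 40 counts as an offset, and at 64.0% of the top 100 ranks all libraries shared a value.

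Arms were tested when their mean over the 6 libraries above the floor reached 24.05 linear units. Log2 values were compared with limma 3.58.1 (R 4.3.3; mean-variance trend, Benjamini-Hochberg adjustment over all tested arms, threshold 0.05), and arm ratios likewise over hairpins. A 95% interval is from that fit. Pairs with one seed were compared by exact permutation with scipy 1.17.1. The fit was also run on simulated normal values with independent arms, of which a smaller share differed than is called here. No result given here rests on that run. The GC content was known for 229 tested arms (85.1%). The named arms were all members, related arms above the floor, the closest arm to each tested member and cell markers. Members, lists and tests were chosen with earlier results of these data known. Alternatives were other offsets, filters, scalings, variance models, collapsed identical rows, GC trend removal and fewer libraries; a fit without BAT_EPA 4 and SAT_EPA 3, which hold the most miR-133a-3p, was added after seeing the data.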

Additional observations from a re-analysis of the deposited data

How the results depend on the processing

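MiR-92a-3p, miR-93-5p and miR-25-3p kept their direction and their call under all 17 alternatives run. The number of members called higher in brown fat fell from 2 to 1 with the floor subtracted and 1 added and with the stricter filter (240.5 linear units), which left 4 members, and was 1 to 2 without one library; miR-93-3p was the call lost with the floor subtracted (limma adjusted p = 0.112) and was not tested under the stricter filter. Over all arms, 58 were called higher with the stricter filter, which left 157, and 12 of 15 hairpins were called. The difference of miR-106b-3p turned to -0.96 with the GC trend removed; the cause was not tested. No paired analysis was possible because the tissues share only the number 3 and the labels do not say that it marks one mouse. The read depth of each single library is unknown, so no counting error is given. The size of a difference that includes libraries at the floor depends on the offset.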
